A study of Arabidopsis thaliana with 6 samples.

Results

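The core cell cycle machinery was examined here as 40 Arabidopsis genes, chosen by their known function from the 33602 genes in the count files. They were the A-type and B-type cyclins, the cyclin-dependent kinases CDKA and CDKB, the E2F and RBR genes, the mitotic regulators MYB3R4 and CDC20.1, 3 cytokinesis genes, the licensing factor CDT1A, MCM2 to MCM7, the PCNA genes and TSO2. By function, 17 members were placed in a G1/S class and 22 in a G2/M class, while CDKA;1 (AT3G48750) acts in both phases and was placed in neither. Members were chosen and classed by function, with earlier results of these data known.

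RNA-Seq was made from roots of the ipt1,3,5,7 mutant at an age of 7 d. These plants lack most cytokinin synthesis because 4 isopentenyltransferase (IPT) genes are mutated. Every library came from this genotype, so no wild type was compared, and read counts of the mutated genes do not test the labels. IPT1 had 3, 7 and 6 reads after DMSO and 0, 4 and 2 after BAP, IPT3 had 15, 20 and 9 against 4, 19 and 17, IPT5 had 62, 103 and 79 against 12, 20 and 9, and IPT7 had 228, 236 and 218 against 8, 8 and 17. Reads of IPT5 and IPT7 were thus detected in the mutant and both genes were lower after BAP (log2 fold changes of -2.48 and -4.28). Plants on a mesh were moved to medium with the synthetic cytokinin 6-benzylaminopurine (BAP, 1 µM) and sampled after 4 h, or to medium with the solvent DMSO and sampled after 1 h, with 3 libraries in each group. The tissue was the primary root without its tip and without lateral roots, so the main root meristem was largely removed. Because the groups were harvested at different times, the BAP treatment and the time since transfer cannot be told apart in any value below. The study's methods call the libraries of a group biological replicates.

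Each library held 19957748 to 20127269 counts, and 24197 to 24516 genes had at least 1 read. Levels are given as CPM, counts per 1e6 reads with library sizes scaled by TMM, and 3 reads corresponded to 0.144 to 0.157 CPM. A low expression filter left 20987 genes, among them all 40 members. Differences are log2 fold changes of BAP over DMSO with their standard error (SE), tested by the quasi-likelihood test of edgeR with p-values adjusted by Benjamini-Hochberg over the 20987 genes. A gene is said to have passed the test at an adjusted p of at most 0.05. Genes that passed and also changed by 0.5 or more on the log2 scale are counted separately as called. The median log2 fold change over all tested genes was 0.

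In the G1 phase of the plant cell cycle, the retinoblastoma protein RBR holds E2F transcription factors inactive. Once cyclin-dependent kinases release them, E2F factors activate the genes of S phase, such as the MCM helicase that opens the DNA and the PCNA clamp that holds polymerases on it. Genes of G2 and mitosis, such as the B-type cyclins and the syntaxin KNOLLE, form a later wave that three-repeat MYB (MYB3R) factors control through the mitosis-specific activator (MSA) element. Cytokinin is known to promote cell division in the root vasculature and, later, in the cambium.

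The promoters of both classes are shown first, with their matches to an E2F-type motif and to the core of the MSA element. The windows covered 250 bases before to 50 bases after the gene start, in the TAIR10.1 assembly with its RefSeq annotation. An E2F-type motif (TTTCCCGC, TTTGGCGC, TTTCGCGC or TTTGCCGC, on both strands) was found in 6 of 17 G1/S members (35.3%), in 0 of 22 G2/M members and in 483 of 27443 windows of all protein-coding genes (1.76%). The 6 members were MCM2, MCM3, MCM4, MCM5, MCM6 and RBR1, so 5 of the 6 MCM genes held it. The 180 bases before the start of those 5 MCM genes, whose transcripts rose as described further on, are printed with the E2F-type motif in capitals.
MCM2, chr1:16970034-16970213 (+ strand): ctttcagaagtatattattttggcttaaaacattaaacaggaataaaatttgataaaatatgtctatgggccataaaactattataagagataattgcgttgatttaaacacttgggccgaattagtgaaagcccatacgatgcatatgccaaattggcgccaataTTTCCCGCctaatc
MCM3, chr5:18773707-18773886 (- strand): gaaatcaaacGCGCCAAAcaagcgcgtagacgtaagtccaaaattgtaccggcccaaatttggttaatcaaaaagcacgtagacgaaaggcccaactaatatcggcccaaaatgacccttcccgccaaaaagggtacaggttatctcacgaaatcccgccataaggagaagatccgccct
MCM4, chr2:7130730-7130909 (- strand): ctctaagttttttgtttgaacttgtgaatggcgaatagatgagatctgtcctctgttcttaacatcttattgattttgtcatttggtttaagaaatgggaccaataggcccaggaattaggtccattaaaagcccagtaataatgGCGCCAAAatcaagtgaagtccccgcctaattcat
MCM5, chr2:3527501-3527680 (- strand): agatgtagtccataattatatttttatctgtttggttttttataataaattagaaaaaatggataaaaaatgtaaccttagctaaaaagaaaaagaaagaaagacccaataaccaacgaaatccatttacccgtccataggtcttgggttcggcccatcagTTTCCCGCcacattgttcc
MCM6, chr5:18010668-18010847 (- strand): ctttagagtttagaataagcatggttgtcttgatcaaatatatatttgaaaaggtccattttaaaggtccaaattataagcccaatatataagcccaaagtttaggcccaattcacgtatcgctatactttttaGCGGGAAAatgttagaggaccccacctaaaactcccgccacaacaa

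The core of the MSA element, AACGG on both strands, is short and was present in 6765 of all 27443 windows (24.7%). It occurred in 14 of 22 G2/M members (63.6%) and in 6 of 17 G1/S members (35.3%). At least 2 copies were held by 11 of 22 G2/M members (50%) and 2 of 17 G1/S members (11.8%), against 1342 windows overall (4.89%). The 180 bases before the start of 6 B-type cyclin genes are printed with the core in capitals, since these genes had 3 or 4 copies there and none of them passed the test.
CYCB1;1, chr4:17624309-17624488 (- strand): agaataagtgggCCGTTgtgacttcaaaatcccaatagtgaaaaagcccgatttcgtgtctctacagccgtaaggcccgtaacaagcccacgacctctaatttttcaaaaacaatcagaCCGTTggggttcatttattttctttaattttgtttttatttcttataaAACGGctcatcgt
CYCB1;2, chr5:1861704-1861883 (- strand): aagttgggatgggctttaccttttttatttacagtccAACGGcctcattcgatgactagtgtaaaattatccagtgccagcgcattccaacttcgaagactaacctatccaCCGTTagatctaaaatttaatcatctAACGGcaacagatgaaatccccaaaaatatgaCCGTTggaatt
CYCB1;3, chr3:3627274-3627453 (- strand): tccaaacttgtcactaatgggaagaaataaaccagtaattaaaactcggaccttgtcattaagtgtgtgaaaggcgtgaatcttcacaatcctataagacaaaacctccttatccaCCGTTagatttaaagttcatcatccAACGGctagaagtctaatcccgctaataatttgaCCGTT
CYCB2;1, chr2:7663875-7664054 (+ strand): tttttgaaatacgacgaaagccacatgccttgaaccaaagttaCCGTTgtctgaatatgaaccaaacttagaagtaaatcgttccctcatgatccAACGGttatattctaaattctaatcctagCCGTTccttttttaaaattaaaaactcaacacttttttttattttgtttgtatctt
CYCB2;2, chr4:16901416-16901595 (+ strand): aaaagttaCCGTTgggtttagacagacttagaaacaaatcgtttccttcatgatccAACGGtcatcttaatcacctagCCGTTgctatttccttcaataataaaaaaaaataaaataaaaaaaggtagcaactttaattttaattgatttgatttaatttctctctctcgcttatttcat
CYCB2;3, chr1:7137829-7138008 (- strand): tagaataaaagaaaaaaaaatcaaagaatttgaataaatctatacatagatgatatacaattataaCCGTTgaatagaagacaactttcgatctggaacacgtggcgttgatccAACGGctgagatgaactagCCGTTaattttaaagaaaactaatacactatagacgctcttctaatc

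In MCM2, MCM4, MCM5 and MCM6 the E2F-type motif began within 50 bases before the RefSeq gene start, and in MCM3 it began at -170. The TAIR10 starts of MCM4, MCM5 and MCM6 in the count files lay further downstream. Before those starts the motif began more than 50 bases away, and only MCM2 kept the same start. The copies of the MSA core lay further apart, for example at -168, -61 and -13 in CYCB1;1. A match is a run of letters and says nothing of binding, and gene starts differ between annotations. The same motifs were counted in other genes of these phases. Of 30 further replication and S-phase genes, 11 held the E2F-type motif (36.7%). Of 28 further mitosis and cytokinesis genes, 2 held it (7.14%), whereas 19 held the MSA core (67.9%).

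**Figure D1:**
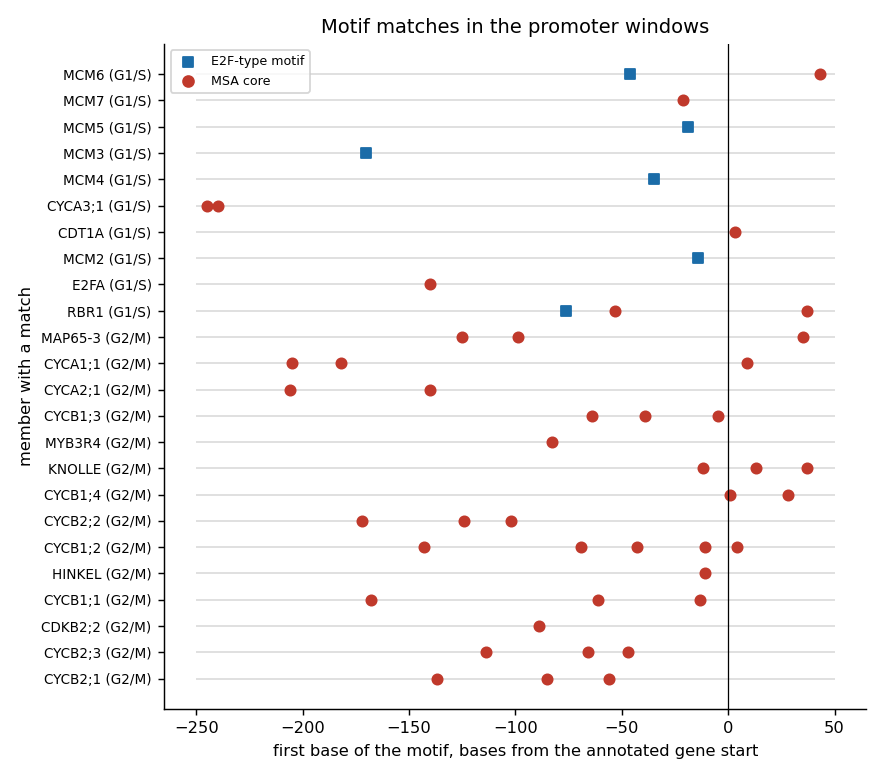
Motif matches in the promoter windows of the members that had any. The x axis gives the first base of each match in bases from the annotated gene start, squares are E2F-type motifs and circles are MSA cores. The 6 squares belong to 5 MCM genes and RBR1, and 11 of the 14 G2/M members with circles have at least 2.

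After BAP the transcripts of most DNA replication genes were higher, while no gene of the mitotic class passed the test. Of the 17 G1/S members 12 passed the test with higher levels after BAP and 0 with lower levels, while over all tested genes 18.5% passed as higher and 19.4% as lower. By DESeq2 9 G1/S members passed as higher, against the 12 by edgeR. Of the 22 G2/M members 0 passed in either direction by edgeR, and 0 by DESeq2. At an unadjusted p under 0.05, 1 G2/M member was higher (CDKB1;1) and 1 lower (CYCB2;3). The median log2 fold change was 0.36 for the G1/S members (range -0.10 to 0.54) and -0.11 for the G2/M members (range -0.32 to 0.22). The signs were split in the same way, with 16 of 17 G1/S values above 0 and 17 of 22 G2/M values below 0. Over all tested genes 10503 values were above 0 and 10484 below. Some member values near 0 changed sign under other settings. The G2/M members also moved together between libraries, as described further on, so their signs are not separate observations. The difference between the classes is given as a description and was not tested.

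The changes were small in size. With the fold minimum, 1 G1/S member was called higher (MCM6) and no member lower, whereas 11.6% of all tested genes were called higher and 11.4% lower under that rule. The count of MCM6 alone depended on single libraries near the minimum: its log2 fold change was 0.49 without DMSO 2 and 0.49 without BAP 1, which left 0 called. Without DMSO 3 MCM7 (0.54) was added, and without BAP 2 PCNA1 (0.52) was added. The levels of the groups did not overlap, with BAP higher, for 14 G1/S and 0 G2/M members, against 24.7% of all tested genes. They did not overlap, with BAP lower, for 0 G1/S and 2 G2/M members, against 26.6% of all tested genes.

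**Figure D2:**
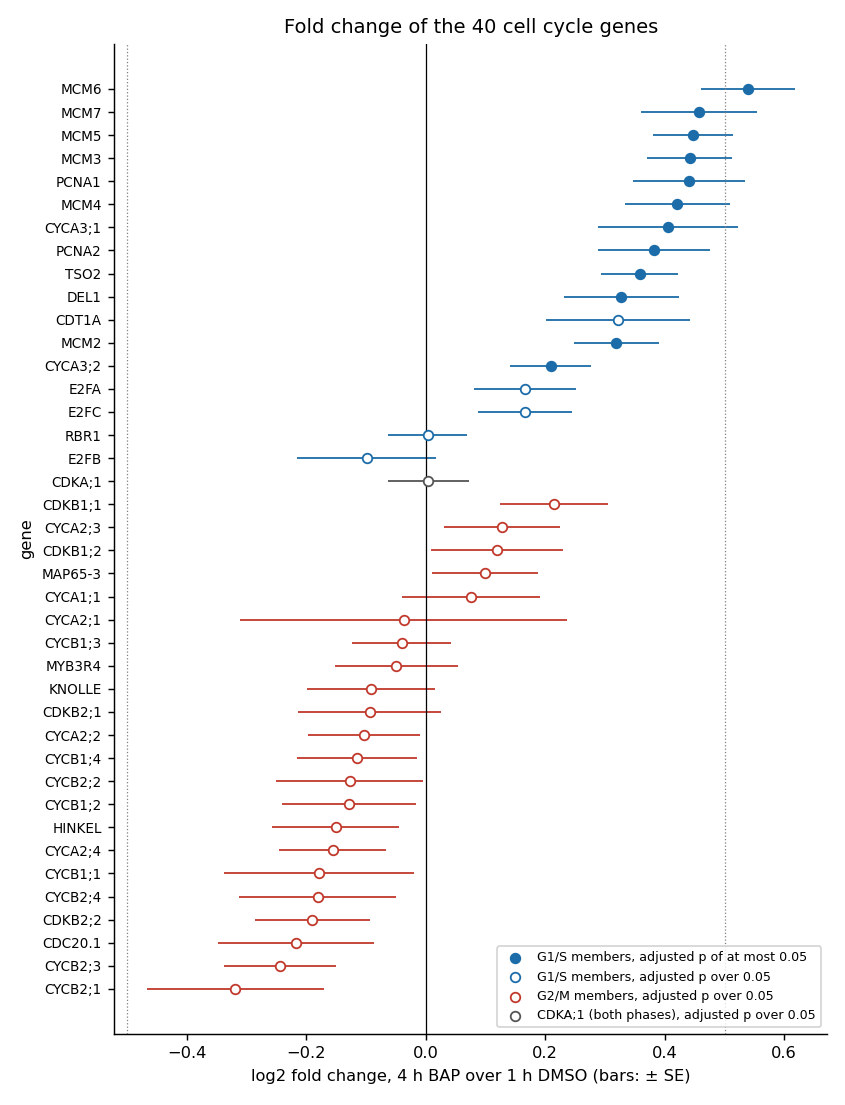
Log2 fold change of 4 h BAP over 1 h DMSO for the 40 members (x axis), ordered within class, with bars of ± SE from edgeR. Filled points passed an adjusted p of 0.05, open points did not, and dotted lines mark 0.5 in size. The 12 filled points are all G1/S members, and all 22 G2/M points are open, between -0.32 and 0.22.

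The MCM2 to MCM7 proteins form the ring-shaped helicase that is loaded on replication origins in G1. All 6 MCM genes rose, with log2 fold changes of 0.32 to 0.54 and a median of 0.44. MCM6 (AT5G44635, chr5:18006431-18010542 in TAIR10) had 20.4, 19.6 and 21.8 CPM after DMSO and 31.8, 28.2 and 29.8 CPM after BAP. Its groups were clearly apart, and the log2 fold change was 0.54 ± 0.08 (edgeR adjusted p of 9.48e-04). MCM5 (AT2G07690) had 32.6, 32.2 and 32.3 CPM after DMSO and 46.7, 43.0 and 42.6 CPM after BAP. The DMSO libraries of MCM5 were almost identical, and each BAP library lay above them (0.45 ± 0.07, edgeR adjusted p of 0.00104).

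MCM3 (AT5G46280) rose from 30.3 ± 1.08 to 41.2 ± 2.22 CPM (mean ± SD, n = 3), a log2 fold change of 0.44 ± 0.07. MCM4 (AT2G16440) rose from 33.1 ± 1.94 to 44.4 ± 4.25 CPM, with 0.42 ± 0.09. MCM7 (AT4G02060) was the least even of the family in DMSO, with 37.6, 35.8 and 44.5 CPM against 58.4, 50.9 and 52.7 CPM after BAP. Its groups still did not overlap (0.46 ± 0.10, edgeR adjusted p of 0.0062). MCM2 (AT1G44900) had the smallest change of the family, from 44.5 ± 2.16 to 55.5 ± 3.21 CPM (0.32 ± 0.07, edgeR adjusted p of 0.0081). 

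PCNA1 and PCNA2 encode the sliding clamp of the DNA polymerases, and TSO2 encodes a small subunit of ribonucleotide reductase, which makes the deoxynucleotides for replication. TSO2 (AT3G27060) had 77.6, 77.6 and 79.7 CPM after DMSO and 106.1, 96.1 and 98.7 CPM after BAP, with a log2 fold change of 0.36 ± 0.06 (edgeR adjusted p of 0.00265). It had the highest level per exon length of all members, 46.3 CPM per kb in DMSO and 59.3 CPM per kb in BAP. PCNA1 (AT1G07370) had 33.7, 31.8 and 35.9 CPM against 50.3, 40.5 and 46.9 CPM (0.44 ± 0.09, edgeR adjusted p of 0.00631). PCNA2 (AT2G29570) had 38.7, 34.1 and 39.3 CPM against 54.3, 44.5 and 47.3 CPM (0.38 ± 0.09, edgeR adjusted p of 0.0125). In each of these genes the lowest BAP library, BAP 2, exceeded the highest DMSO library. PCNA2 came closest to the threshold of the 3 when a library was left out, with an adjusted p of 0.0497 without DMSO 2. Of the exon words of 50 bases in PCNA2, 23.3% also occurred in other genes, most often in the overlapping annotation AT2G29560. Part of the PCNA2 reads may thus have been left uncounted or assigned to another gene.

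**Figure D3:**
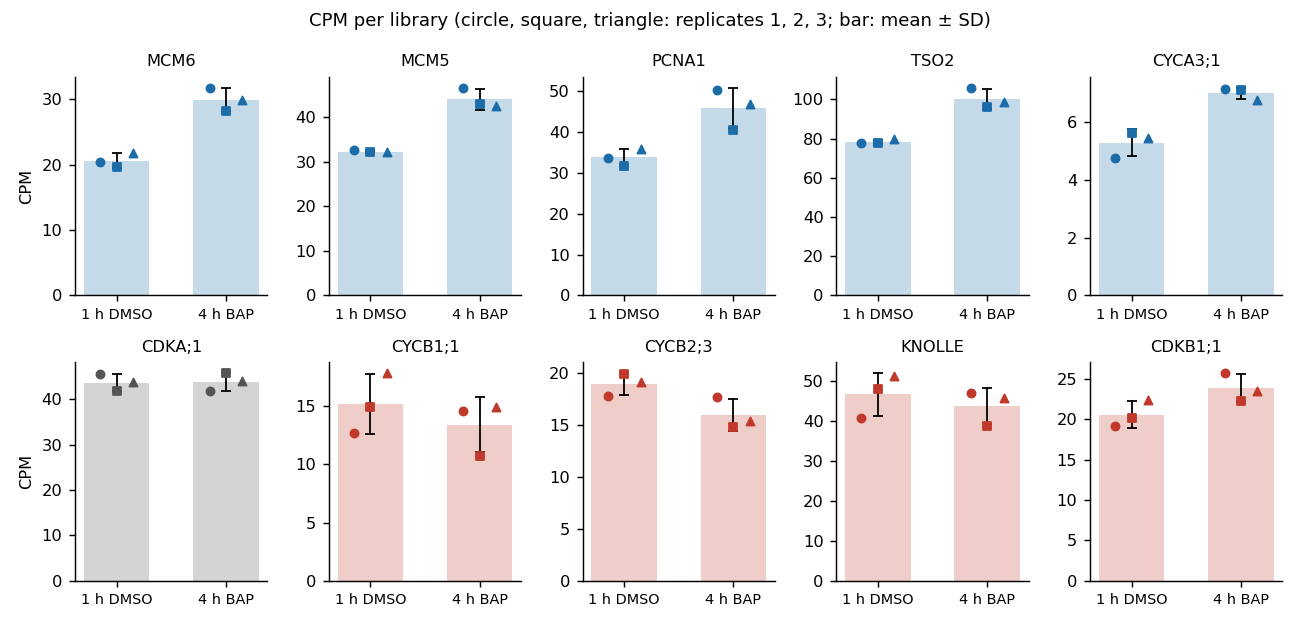
CPM (y axes, from 0) of 10 members in the 6 libraries. Bars are group means with error bars of ± SD (n = 3), and symbols are replicates 1, 2 and 3. The 5 G1/S genes in the upper row have every BAP point above every DMSO point. In the lower row CDKA;1, CYCB1;1, KNOLLE and, narrowly, CDKB1;1 overlap between the groups.

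Of the 5 E2F and RBR genes, the regulators upstream of S phase, 1 passed as higher, a share close to the 18.5% of all tested genes. E2FA and E2FB encode activating E2F factors, E2FC a repressing one, and DEL1 an atypical E2F that restrains endoreduplication. DEL1 (AT3G48160) had 8.76, 8.72 and 9.98 CPM after DMSO and 11.9, 11.3 and 11.2 CPM after BAP, a log2 fold change of 0.33 ± 0.10 (edgeR adjusted p of 0.0273). The groups did not overlap, but 19% of its exon words of 50 bases were shared with other genes, most often AT3G48170. E2FA (AT2G36010) had 10.4, 11.1 and 10.3 CPM against 11.8, 11.8 and 12.1 CPM (0.17 ± 0.09, edgeR adjusted p of 0.159). E2FC (AT1G47870) had 18.6, 18.4 and 18.1 CPM against 22.0, 19.0 and 20.9 CPM (0.17 ± 0.08, edgeR adjusted p of 0.136). Both were higher in each BAP library than in any DMSO library, yet neither passed the test.

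E2FB (AT5G22220) and RBR1 (AT3G12280) overlapped between the groups. E2FB was at 8.12 ± 0.27 CPM after DMSO and 7.59 ± 0.86 CPM after BAP, a log2 fold change of -0.10 ± 0.12. RBR1, the retinoblastoma gene, was at 62.5 ± 3.28 and 62.6 ± 2.05 CPM, and its log2 fold change was 0.00 ± 0.07 with a sign that turned under other settings. RBR1 was the single member with an E2F-type motif in its window that did not pass. In turn, 7 of the 11 G1/S members without the motif passed, with a median log2 fold change of 0.33 over the 11, against 0.43 over the 6 members with it. MCM7, PCNA1, PCNA2 and TSO2 were among those 7.

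CDT1A (AT2G31270) encodes the factor that loads the MCM ring on origins. It had 20.05, 24.1 and 27.9 CPM after DMSO and 30.7, 27.8 and 31.6 CPM after BAP. The DMSO libraries were widely spread and DMSO 3 lay slightly above BAP 2. The log2 fold change of 0.32 ± 0.12 did not pass (edgeR adjusted p of 0.0638), whereas without DMSO 3 it was 0.43 with an adjusted p of 0.0212.

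The A-type cyclins were divided by subgroup. CYCA3;1 and CYCA3;2, expressed around the start of S phase, both passed as higher. CYCA3;1 (AT5G43080) had 4.75, 5.64 and 5.47 CPM against 7.14, 7.11 and 6.79 CPM (0.41 ± 0.12, edgeR adjusted p of 0.0247). CYCA3;2 (AT1G47210) had 30.7, 32.4 and 33.3 CPM against 38.2, 35.8 and 37.4 CPM (0.21 ± 0.07, edgeR adjusted p of 0.0391). The groups did not overlap for either gene. The remaining A-type cyclins, which act mainly in G2 and, for CYCA2, in the control of endoreduplication, did not pass. CYCA1;1 (AT1G44110) was at 16.4 ± 1.72 and 17.3 ± 2.11 CPM, and the CYCA2 genes had log2 fold changes from -0.16 (CYCA2;4, AT1G80370) to 0.13 (CYCA2;3, AT1G15570). CYCA2;2 (AT5G11300) lay between them at -0.10 ± 0.09. CYCA2;1 (AT5G25380) was the lowest member at 0.946 CPM per kb in DMSO, and its -0.04 ± 0.27 was the least precise value.

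The 9 MCM, PCNA and TSO2 genes passed in all 6 fits that left out a library. DEL1, CYCA3;1 and CYCA3;2 passed at adjusted p-values nearer the threshold, and none of these 3 passed by DESeq2 (0.0736, 0.0711 and 0.0857). When 1 library was left out, CYCA3;2 passed in 0 of 6 fits (adjusted p of 0.0504 to 0.14). CYCA3;1 passed only without DMSO 2 and was lost without DMSO 1 (0.086), DMSO 3 (0.0514), BAP 1 (0.0686), BAP 2 (0.0642) or BAP 3 (0.0503). DEL1 passed only without DMSO 3 and was lost without DMSO 1 (0.09), DMSO 2 (0.0937), BAP 1 (0.0826), BAP 2 (0.0575) or BAP 3 (0.0542). The G1/S count of 12 was 9 to 11 in these fits.

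The B-type cyclins drive entry into mitosis. All 8 had log2 fold changes below 0, with a median of -0.15, but none passed the test. CYCB1;1 (AT4G37490), the gene behind a widely used reporter of G2/M cells, had 12.7, 14.9 and 17.9 CPM after DMSO and 14.6, 10.7 and 14.9 CPM after BAP. The groups overlapped broadly (-0.18 ± 0.16, edgeR adjusted p of 0.414). CYCB1;2 (AT5G06150), CYCB1;3 (AT3G11520) and CYCB1;4 (AT2G26760) overlapped as well, with -0.13 ± 0.11, -0.04 ± 0.08 and -0.12 ± 0.10. The value of CYCB1;3 ranged from -0.098 to 0.023 when a library was left out, so its sign was not stable.

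CYCB2;1 and CYCB2;3 had the lowest log2 fold changes of all members. CYCB2;1 (AT2G17620) had 5.79, 5.93 and 6.86 CPM after DMSO and 4.92, 4.23 and 5.74 CPM after BAP (-0.32 ± 0.15, edgeR adjusted p of 0.124). CYCB2;3 (AT1G20610) had 17.7, 19.9 and 19.2 CPM against 17.7, 14.8 and 15.4 CPM (-0.24 ± 0.09, edgeR adjusted p of 0.0705). Each BAP library was below each DMSO library for both genes, although DMSO 1 and BAP 1 of CYCB2;3 differed by little. CYCB2;3 passed without BAP 1 (-0.32, adjusted p of 0.0361). Of its exon words of 50 bases, 17% were shared with other genes, most often AT1G20590. CYCB2;4 (AT1G76310) and CYCB2;2 (AT4G35620) had -0.18 ± 0.13 and -0.13 ± 0.12, and their groups overlapped.

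The plant-specific CDKB kinases act from S phase to mitosis, whereas CDKA;1 is needed throughout. CDKA;1 had 45.6, 41.8 and 43.8 CPM after DMSO and 41.8, 45.8 and 44.0 CPM after BAP, so both groups covered the same range (0.00 ± 0.07, with a sign that turned under other settings). CDKB1;1 (AT3G54180) had 19.1 to 22.4 CPM after DMSO and 25.7, 22.3 and 23.5 CPM after BAP. Its groups touched, since DMSO 3 was above BAP 2, and its value of 0.22 ± 0.09 was the highest in the G2/M class (edgeR adjusted p of 0.0938). CDKB1;2 (AT2G38620) was at 0.12 ± 0.11. The CDKB2 genes lay on the other side of 0, with CDKB2;1 (AT1G76540) at -0.09 ± 0.12 and CDKB2;2 (AT1G20930) at -0.19 ± 0.10.

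Among the genes of late mitosis, KNOLLE (AT1G08560) encodes the syntaxin that fuses vesicles at the cell plate, HINKEL (AT1G18370) a kinesin of the phragmoplast and MAP65-3 (AT5G51600) a microtubule cross-linker there. KNOLLE had 40.6, 48.0 and 51.1 CPM against 46.9, 38.6 and 45.6 CPM, and the groups overlapped (-0.09 ± 0.11). KNOLLE was the most abundant G2/M member per exon length, 33.6 CPM per kb in DMSO. However, 32.2% of its exon words of 50 bases also lay in other genes, most often the overlapping AT1G08550. HINKEL was at -0.15 ± 0.11 and MAP65-3 at 0.10 ± 0.09. CDC20.1 (AT4G33270), an activator of the anaphase-promoting complex, was at -0.22 ± 0.13. Of its exon words, 33.2% were shared with other genes, most often its neighbour AT4G33260. MYB3R4 (AT5G11510), an activator of mitotic genes through the MSA element, was at 21.8 ± 1.52 and 21.1 ± 2.59 CPM (-0.05 ± 0.10). None of these genes passed the test. The G2/M members with at least 2 MSA cores had a median log2 fold change of -0.12, and the others -0.10.

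**Figure D4:**
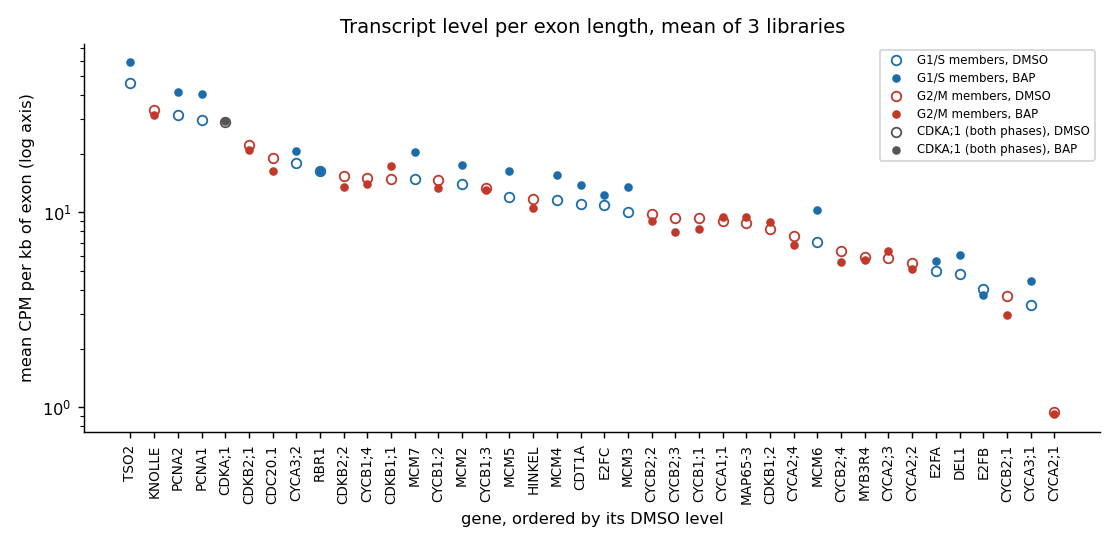
Mean CPM per kb of exon (y axis, log scale) of each member in DMSO (open) and BAP (filled) libraries, ordered by the DMSO level. The members span 0.946 to 46.3 CPM per kb in DMSO, G1/S and G2/M members are mixed along the order, and filled points stand above open ones for most G1/S members.

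The members were followed library by library, as deviations of log2(CPM + 0.5) from the mean of the DMSO libraries. The median deviation of the G1/S members was -0.04, -0.01 and 0.05 in DMSO 1 to 3 and 0.41, 0.28 and 0.33 in BAP 1 to 3. All BAP libraries were thus above all DMSO libraries. For the G2/M members the medians were -0.09, 0.02 and 0.08 in DMSO and 0.07, -0.26 and -0.13 in BAP. BAP 1 was level with DMSO 3, and BAP 2 was the lowest of all.

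The G2/M members moved together between libraries of the same group. Of the BAP libraries, BAP 1 had the highest level for 20 of 22 G2/M members and BAP 2 the lowest for 19 of 22. Of the DMSO libraries, DMSO 3 was highest for 15 of 22 and DMSO 1 lowest for 14 of 22. BAP 1 was also the highest BAP library for 14 of 17 G1/S members. Over all tested genes a given library was the highest of its group for 27.5% to 38.6% of genes. The G2/M median rested on these libraries: it was -0.23 without BAP 1 and -0.03 without BAP 2, while the G1/S median was 0.31 and 0.39.

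Within each group, the distance between the classes varied less than the G2/M level. The mean deviation of the G1/S members minus that of the G2/M members was 0.04, -0.02 and -0.02 in DMSO 1 to 3 and 0.31, 0.49 and 0.37 in BAP 1 to 3. In summed CPM, the G1/S members had 506.1, 510.5 and 542.5 in DMSO and 693.9, 623.8 and 639.1 in BAP. The G2/M members had 430.5, 465.6 and 486.3 in DMSO and 484.9, 387.3 and 432.3 in BAP. The ratio of these sums was 1.10 to 1.18 in DMSO and 1.43 to 1.61 in BAP. These are descriptions with no test. In RNA from bulk root tissue, fewer cells in a phase and less RNA per cell cannot be told apart.

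**Figure D5:**
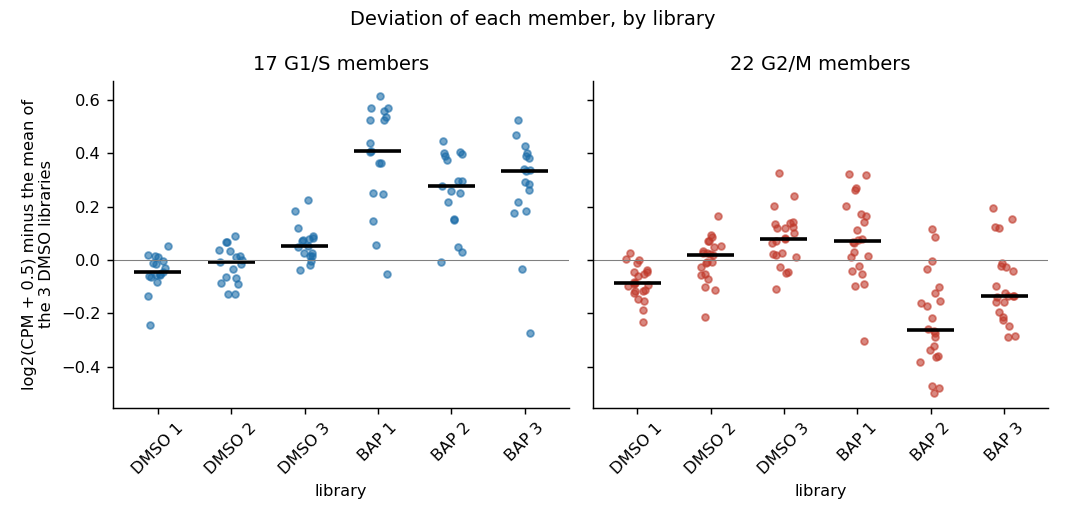
Deviation of each member from its DMSO mean, in log2(CPM + 0.5), by library (x axis), with points for genes and black lines for the class median. The G1/S medians of the BAP libraries (0.28 to 0.41) stand above those of the DMSO libraries, and the G2/M medians of BAP range from -0.26 to 0.07 around the DMSO values.

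Further genes of the same pathways were examined beside the members. Of 30 other replication and S-phase genes 16 rose and 0 fell, with a median log2 fold change of 0.36, where 18.5% of all tested genes passed as higher and 19.4% as lower. Past the fold minimum were FAS2 (0.68 ± 0.16), a subunit of the chromatin assembly factor that places histones on new DNA, POLA2 (0.67 ± 0.09), a subunit of DNA polymerase alpha, and the ribonucleotide reductase genes RNR2A (0.59 ± 0.11) and RNR1 (0.56 ± 0.07). POLA2 had 13.1, 12.6 and 13.9 CPM after DMSO and 22.7, 20.17 and 20.01 CPM after BAP, without overlap. Of 28 other mitosis and cytokinesis genes 1 rose and 2 fell, with a median of -0.09. The kinesin gene TES, which acts with HINKEL in the phragmoplast, was the single one past the fold minimum. TES had 23.5, 23.2 and 23.3 CPM against 16.6, 15.3 and 16.02 CPM (-0.55 ± 0.07, edgeR adjusted p of 4.97e-04).

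The tissue and its marker genes bear on where these transcripts came from. Of 8 lateral root primordium markers 7 fell and the eighth, PLT7, was at -0.58 (adjusted p of 0.0843), with a list median of -2.10. Their summed level was 52.0 to 57.1 CPM in DMSO and 14.7 to 15.3 CPM in BAP. LBD16, a factor of lateral root initiation, had 19.5, 18.3 and 18.9 CPM against 3.57, 3.50 and 3.09 CPM (-2.48 ± 0.10). Of these markers LBD33 had 0 reads in BAP 2 and BAP 3. Of 11 root tip markers 2 fell, WOX5 (-1.92 ± 0.23), a gene of the quiescent centre, and PLT2 (-0.58 ± 0.15), a share close to the 19.4% of all tested genes that passed as lower. Root tip markers were thus still detected in tissue cut without tips. Their summed level was 83.6 to 92.1 CPM in DMSO and 88.1, 69.6 and 92.1 CPM in BAP 1 to 3. The largest part of this sum was PLT3, with 44.7, 41.3 and 46.4 CPM in DMSO and 47.8, 39.9 and 53.2 CPM in BAP. The sum thus says little of the other markers of the list. Over the 11 markers the median log2 fold change was -0.13, with 5 values above 0 and 6 below. By summed level BAP 2 was lowest and BAP 3 highest of the BAP libraries for the root tip list. For the G2/M class BAP 2 was lowest and BAP 1 highest of them. The part of primordia, residual tips or their cells in the G1/S and G2/M values was not tested.

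Of 9 markers of mature root tissues 3 rose and 4 fell, with a median of 0.07. Single values were far from this median, from -4.96 (SKOR) to 1.92 (PYK10). Over all tested genes 18.5% passed as higher and 19.4% as lower. The summed level of the 9 markers was 4812 to 6180 CPM in DMSO and 14510 to 18090 CPM in BAP, and it was mostly PYK10. Of 5 shoot markers 2 rose, RBCS1A and CAB1, and the sum was 20.05 to 24.2 CPM in DMSO and 26.9 to 68.8 CPM in BAP, with BAP 3 the highest. The G1/S median deviation in BAP 3 lay between those of the other BAP libraries. Whether shoot tissue had a part in the G1/S values was not tested.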

How the data were processed

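For each of the 6 libraries a deposited table gives whole read counts by gene. Per the submitters' processing notes and the study's methods, the authors used FastQC, Bowtie2 and HTSeq with TAIR10, and the versions are not given in the sources used here. The use of strand was not stated. The kit does not mark strand, so overlapping genes cannot be fully separated. Gene coordinates are those of the files (TAIR10), counted from 1. Exon lengths, symbols and promoters came from TAIR10.1 with RefSeq annotation, in which all 40 members and 32835 identifiers were found, and of the nuclear genes in both 10599 had the same start and end.

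Counts were tested with edgeR 4.0.16 in R 4.3.3 (quasi-likelihood F test, TMM, filterByExpr with minimum count 10 and minimum total count 15), with the group as the single term. The p-values were adjusted by the Benjamini-Hochberg method over 20987 genes, and 12615 were left out. CPM per kb used the merged exon length. DESeq2 1.42.0, other scalings, filters, a GC correction (loess span 0.5), a replicate block, narrower classes and leaving out each library were alternatives. The fit was tested on simulated data. The members and gene lists were chosen with earlier results of these data known. All members are named, and of other pathway lists those past the fold minimum, at most 4 a direction. Of the marker lists any gene could be named.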

Additional observations from a re-analysis of the deposited data

How the results depend on the processing

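Both class medians kept their sign in every setting and moved by less than 1 SD between libraries: 0.31 to 0.40 for G1/S members and -0.23 to -0.03 for G2/M members without single libraries, and 0.33 to 0.39 and -0.14 to -0.09 under the other alternatives. The number of G1/S members passing without a fold minimum was 9 to 13. The number called with the fold minimum ranged from 0 to 2 without single libraries, and the number of G2/M members passing as lower without a fold minimum from 0 to 1. All 9 MCM, PCNA and TSO2 genes passed under every alternative. CDT1A passed with the replicate block (0.33, adjusted p of 0.0334), which changed the call of no other member. Same-numbered DMSO and BAP libraries deviated together with r of 0.21, 0.0491 and 0.281, and differently numbered ones had r of -0.277 to 0.0587. Only the value of number 2 (0.0491) lay within the latter range. The main fit did not take the numbers to pair the samples. Values near 0 changed sign: CDKA;1 was -0.007 and RBR1 -0.008 with no filter beyond 1 read, and RBR1 was -0.030 with the GC correction, alone or with the replicate block. Without single libraries, ranges crossed 0 for CYCA1;1 (-0.029 to 0.151), CYCA2;1 (-0.290 to 0.182), CYCB1;3 (-0.098 to 0.023), CDKA;1 (-0.041 to 0.038), MYB3R4 (-0.155 to 0.005) and RBR1 (-0.049 to 0.024). The cause was not tested. With 3 libraries a group, members with few reads such as CYCA2;1 have wide errors, and a G2/M value that did not pass is not shown to be unchanged.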

Other observations

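Of 7 genes for activators and subunits of cyclin-dependent kinases 2 rose and 0 fell, where 18.5% of all tested genes passed as higher and 19.4% as lower, and the median log2 fold change was 0.12. CDKD;3, a kinase that phosphorylates other cyclin-dependent kinases, had 11.4, 11.4 and 12.6 CPM after DMSO and 15.0, 14.8 and 15.8 CPM after BAP (0.37 ± 0.09, edgeR adjusted p of 0.00936). CKS1, a small subunit of the kinase complexes, had 27.3, 29.1 and 26.1 CPM against 32.6, 33.8 and 30.6 CPM (0.23 ± 0.08, edgeR adjusted p of 0.0376). Both genes were named after their values were seen.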
